A study of Mus musculus with 4 samples.

Results

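N1a is a subset of tumour neutrophils that the authors named in a deposited table with 1 name per cell. Its members here are the cells with that name, 144 of 964 neutrophils and of 4440 cells in all. The cells were sorted as CD45+, a marker of blood-derived cells, from MC38 murine colon carcinomas that had grown for 7 days in the flank of mice. Every mouse carried an IL-12p40-IRES-EYFP transgene, which reports expression of the p40 chain of interleukin-12 by a yellow fluorescent protein. The untreated group was 1 tumour, and the treated group was 2 tumours of mice given an agonist antibody (aCD40) into the peritoneal cavity at 5 mg/kg, directed at CD40, a receptor of antigen-presenting cells, 2 days before the tumours were taken. Neither the age nor the sex of the mice is given in the sources used here, and the tumours are grafts of a single cell line. RNA was read by inDrops, a droplet method in which unique molecular identifiers (UMIs) let copies of 1 RNA be counted once. The treated tumours are called tumour 1 and tumour 2, by the authors' animal number. N1a was described against the subsets N1b, N2, N3 and N5 within each treated tumour; the subset N4 held 4 cells and was not compared.

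Neutrophils are made in the bone marrow, where they fill their granules in a fixed order. Primary (azurophil) granules hold myeloperoxidase and serine proteases and are made by promyelocytes. Secondary (specific) granules, which hold lactoferrin, cathelicidin and lipocalin 2, are made by myelocytes and metamyelocytes, and gelatinase granules, which hold matrix metalloproteinases, are made by band cells. Transcripts of granule proteins decline as the cells mature, so that a blood neutrophil carries much of the protein and less of the RNA. In inflamed tissue and in tumours, neutrophils make chemokines such as Ccl3, Ccl4 and Cxcl2 and genes of the response to low oxygen.

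The 4 genes given as markers of N1a encode products of granules or of maturing neutrophils. Ngp (neutrophilic granule protein) is a secondary granule protein, Lcn2 (lipocalin 2) binds bacterial siderophores, Mmp8 is neutrophil collagenase, and Retnlg is a resistin-like secreted protein of myeloid cells. The genes lie at chr9:110419747-110423012 (Ngp, plus strand), chr2:32384633-32388252 (Lcn2, minus strand), chr9:7558456-7568485 (Mmp8, plus strand) and chr16:48872621-48874496 (Retnlg, plus strand) of GRCm38, and no exon of another gene of the GENCODE annotation overlaps theirs. Since these genes share a high level in N1a, a stretch upstream of each RefSeq start site is shown, from the RefSeq promoter table (GRCm38.p6), cut to bases outside annotated exons. The stretches of Mmp8 and Retnlg reach the RefSeq start, while those of Ngp and Lcn2 end 61 and 58 bases before it. The Lcn2 stretch lies inside the GENCODE span of that gene, between its exons, since the RefSeq start (32387739) is downstream of the GENCODE one. Capitals mark matches to TTNNGNAA, a form of the element bound by C/EBP factors, which act in granule gene expression. Both strands were searched. No other motif was searched. The stretches are chr9:110419558-110419746 for Ngp (plus strand), chr2:32387798-32387850 for Lcn2 (minus strand), chr9:7558179-7558428 for Mmp8 (plus strand) and chr16:48872358-48872607 for Retnlg (plus strand).
Ngp: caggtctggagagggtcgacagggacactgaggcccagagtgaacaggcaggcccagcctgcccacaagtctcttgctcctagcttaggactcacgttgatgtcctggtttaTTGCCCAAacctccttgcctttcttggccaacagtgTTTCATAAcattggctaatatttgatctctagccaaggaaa
Lcn2: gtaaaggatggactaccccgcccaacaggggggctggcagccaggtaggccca
Mmp8: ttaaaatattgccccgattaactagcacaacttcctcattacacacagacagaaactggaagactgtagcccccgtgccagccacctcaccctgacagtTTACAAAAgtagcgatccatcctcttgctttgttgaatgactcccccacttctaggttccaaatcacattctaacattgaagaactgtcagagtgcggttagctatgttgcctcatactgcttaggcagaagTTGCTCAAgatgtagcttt
Retnlg: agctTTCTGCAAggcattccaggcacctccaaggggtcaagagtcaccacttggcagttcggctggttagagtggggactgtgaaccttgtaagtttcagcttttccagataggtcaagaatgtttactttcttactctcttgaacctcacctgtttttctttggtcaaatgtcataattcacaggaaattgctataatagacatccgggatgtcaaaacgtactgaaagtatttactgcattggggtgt
Ngp and Mmp8 held 2 matches each, Retnlg held 1, and the 53 bases of Lcn2 held none. Of 32851 mouse promoters in the table, 31.1% held a match in a window of 189 bases like that of Ngp, 8.62% in one of 53 bases and 36.8% in one of 250 bases like those of Mmp8 and Retnlg. A match of these letters was therefore common, and it is a description of the sequence, not of binding.

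The libraries of the 3 tumours summed to 707889 UMIs (untreated), 1391113 (tumour 1) and 1862139 (tumour 2). N1a summed to 150859 UMIs in tumour 1 and 19063 in tumour 2, with medians of 964.5 and 1121.5 UMIs per cell. The subsets it was set against had medians between 566 and 1123.5 UMIs per cell in the treated tumours, and the untreated neutrophils a median of 435. No cell barcode was shared between the 12 libraries. Tumour 1 was sequenced in pools 1 and 2, together with the untreated tumour, and tumour 2 in pools 3 and 4, so that tumour and pool cannot be told apart. The names of the subsets come from the transcriptomes of the same cells. Differences between subsets are therefore descriptions without a test, and the treated tumours are the 2 replicates. Levels are counts per 1000000 UMIs (CPM) of a subset in a tumour, and intervals cover counting error only. A gene was called higher or lower where its level differed at least 2-fold in the same direction in both treated tumours, among genes with at least 20 UMIs summed over the compared subsets in tumour 1 and at least 5 in tumour 2.

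N1a cells were found only in the treated tumours, and their share of neutrophils differed between these. The untreated tumour held 0 N1a cells among 49 neutrophils, which allows a share of up to 6.12%. Tumour 1 held 128 of 700 neutrophils, or 18.3% (95% exact Clopper-Pearson interval 15.5 to 21.4), and tumour 2 held 16 of 215, or 7.44% (4.31 to 11.8). The limit of the untreated tumour lay below the interval of tumour 1 and inside that of tumour 2, so that a difference between the untreated tumour and tumour 2 was not detectable at this depth. The 4 libraries of tumour 1 ranged from 13.3% to 24.5%, and those of tumour 2 from 3.33% to 12.2%. The intervals of the lowest of tumour 1 (8.50 to 19.4) and the highest of tumour 2 (4.63 to 24.8) overlapped. Libraries of 1 tumour are no replicates. By pool, the shares were 14.3% and 21.01% in tumour 1 and 9.80% and 5.31% in tumour 2. Of all CD45+ cells, N1a made up 10.4% in tumour 1 and 0.882% in tumour 2, and of the N1a and N1b cells together it made up 46.4% and 53.3%. The intervals of the last pair of shares, 40.4 to 52.5 and 34.3 to 71.7, overlapped, whereas those of the share of CD45+ cells, 8.78 to 12.3 and 0.505 to 1.43, did not. No test was made over 1 untreated and 2 treated tumours.

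**Figure D1:**
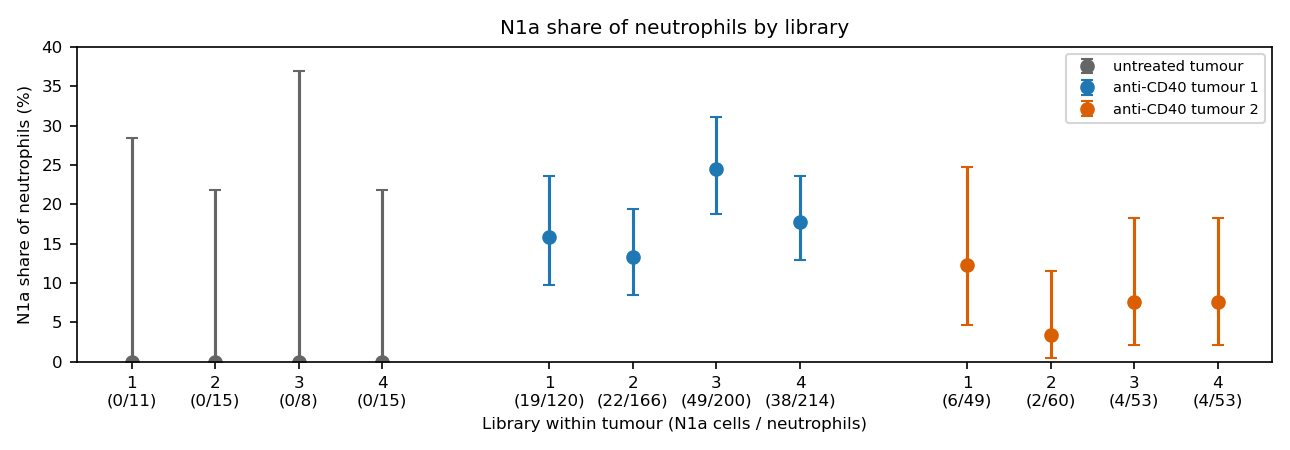
N1a cells as a share of neutrophils (percent, vertical axis) in each of the 12 libraries, by tumour, with exact 95% Clopper-Pearson intervals as bars and the cell counts under each point. The 4 libraries of tumour 1 lie between 13.3% and 24.5%, those of tumour 2 between 3.33% and 12.2%, and those of the untreated tumour at 0.

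The 4 markers were higher in N1a than in every other subset of both treated tumours. Ngp stood at 11600.2 CPM in N1a, 858 in N1b, 498 in N2, 103 in N3 and 0 in N5 in tumour 1, and at 5613 in N1a, 1207 in N1b, 212 in N2, 0 in N3 and 0 in N5 in tumour 2. Its level in N1a was 13.5-fold (95% counting interval 11.4 to 16.1) that of N1b in tumour 1 and 4.65-fold (95% counting interval 2.87 to 7.91) in tumour 2. Lcn2 declined in smaller steps, with 14709 in N1a, 8567 in N1b, 5999 in N2, 3005 in N3 and 589.9 in N5 in tumour 1 and 12799.7 in N1a, 9841 in N1b, 4547 in N2, 1237 in N3 and 741 in N5 in tumour 2. The N1a level of Lcn2 was 1.72-fold and 1.30-fold that of N1b, which is under the 2-fold line in both tumours. Mmp8 reached 9572 in N1a, 4657 in N1b, 2734 in N2, 1189 in N3 and 439 in N5 in tumour 1 and 12380 in N1a, 5071 in N1b, 1879 in N2, 477 in N3 and 218 in N5 in tumour 2. Retnlg reached 21709 in N1a, 11154 in N1b, 5752 in N2, 5008 in N3 and 809 in N5 in tumour 1 and 25494 in N1a, 10324 in N1b, 4214 in N2, 937 in N3 and 893 in N5 in tumour 2. Mmp8 and Retnlg lay on either side of the 2-fold line against N1b: Mmp8 was 2.06-fold (95% counting interval 1.88 to 2.24) and 2.44-fold (95% counting interval 1.90 to 3.17) higher and was called, whereas Retnlg was 1.95-fold (95% counting interval 1.84 to 2.06) and 2.47-fold (95% counting interval 2.07 to 2.96) higher and missed the line in tumour 1. With TMM or DESeq2 scaling, Retnlg was called too. Both set the scale by ratios of each gene between groups of cells, and not by total UMIs alone. Over the 8 treated libraries, Lcn2 ran from 11486 CPM over a median of 14384 to 18068 in N1a, and from 4975 over 9129 to 10818 in N1b, so that these did not overlap. Retnlg did not overlap either, from 16889 over 24314 to 29085 in N1a and from 3197 over 10736 to 14461 in N1b. Mmp8 ran from 7463 over 9432 to 16478 in N1a and from 2055 over 4643 to 6954 in N1b and did not overlap. Ngp overlapped, from 942 over 8278 to 16421 in N1a and from 0 over 908 to 3197 in N1b, and its lowest N1a value came from a library of tumour 2 with 2 N1a cells and 2 UMIs of the gene. The 8 libraries come from 2 tumours and are not 8 replicates, and those of tumour 2 hold 2 to 6 N1a cells each. The 4 genes are the markers given for N1a, so that these gaps are a description and no support for the subset.

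The 4 markers also met in single cells. To compare cells of unequal depth, each cell was thinned at random to 300 UMIs, and shallower cells were left out. Of N1a cells, 116 of 123 in tumour 1 (94.3%) and 14 of 15 in tumour 2 (93.3%) kept a UMI of at least 3 of the 4 markers. The share was 54.2% and 61.5% in N1b, 25.1% and 12.2% in N2, 6.67% and 2.99% in N3. In N5 it was 0 of 88 and 0 of 63 cells, which allows up to 3.41% and 4.76%. Among the 41 untreated neutrophils deep enough, 0 held 3 markers, which allows up to 7.32%, and T cells, which should lack these genes, held them in at most 2.13% of cells. The 4 untreated cells that carry the name N1b held 1 UMI of the markers at the median, against 7 and 6 in N1b of the treated tumours and 15 and 16 in N1a.

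Genes of secondary granules were higher in N1a than in the later subsets N2, N3 and N5. Of 21 genes in the list, 19 could be compared with N2, N3 and N5 as 1 pool of cells, 12 were higher in N1a and 0 were lower, against 7.46% of all 2332 genes called higher and 8.28% called lower. Ngp and Lcn2 among the 12 are markers of N1a. Camp, Cd177 and Ceacam10 reached the filter in tumour 2 only through N1a and could not have been called lower. The count is therefore a description and no independent support. The median log2 difference of the 19 was 1.82 in tumour 1 and 2.96 in tumour 2, against -0.17 and 0.33 over all genes compared. With TMM or DESeq2 scaling 10 were higher, beside 4.2% or 5.4% of all genes. Camp, the cathelicidin antimicrobial peptide (chr9:109847379-109849617, minus strand), stood at 1544 CPM in N1a, 35.3 in N1b, 23.7 in N2, 0 in N3 and 0 in N5 in tumour 1 and at 419.7 in N1a, 121 in N1b, 0 in N2, 0 in N3 and 0 in N5 in tumour 2. It was 43.8-fold (95% counting interval 19.8 to 120.5) higher in N1a than in N1b in tumour 1 and 3.48-fold (95% counting interval 0.694 to 33.6) in tumour 2, where N1a held 8 UMIs and N1b 2. Cd177, a surface receptor stored in these granules (chr7:24743983-24760311, minus strand), stood at 835 in N1a, 129 in N1b, 94.9 in N2, 18.7 in N3 and 0 in N5 in tumour 1 and at 577 in N1a, 60.4 in N1b, 0 in N2, 0 in N3 and 21.8 in N5 in tumour 2, and was 6.46-fold (95% counting interval 4.08 to 10.7) and 9.56-fold (95% counting interval 1.39 to 411) higher in N1a than in N1b. Ceacam10, a cell adhesion molecule, was seen with 37 and 5 UMIs in N1a and was 23.9-fold and at least 11.8-fold higher than in N2, N3 and N5 together. Pglyrp1, a peptidoglycan recognition protein, stood at 2327 in N1a of tumour 1 and 1888 of tumour 2, against 1446 and 1328 in N1b and 0 in N5 of both. Against N1b alone, 3 of 16 members were called higher (Camp, Ngp and Cd177) and none lower, beside 1.49% and 2.23% of all 1074 genes compared. Ngp is a marker of N1a, and Camp and Cd177 passed the filter in tumour 2 only through N1a.

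Ltf, which encodes lactoferrin (chr9:111019271-111042767, plus strand), was high in N1a of tumour 1 only. It stood at 1213 CPM in N1a, 23.5 in N1b, 9.49 in N2, 9.36 in N3 and 13.7 in N5 in tumour 1 and at 52.5 in N1a, 0 in N1b, 0 in N2, 106 in N3 and 0 in N5 in tumour 2, and the N1a value of tumour 2 rests on 1 UMI. It was not called against N3 or against the 3 later subsets together, and it had too few UMIs in tumour 2 to be compared with N1b, N2 or N5. Among genes of primary granules, those that mark promyelocytes had few or no UMIs. Mpo, Elane, Ctsg and Ms4a3, which mark promyelocytes, had 0 UMIs in all N1a cells, and Prtn3 and Prss57 had 1 and 2. The other 4 members are expressed by mature myeloid cells too. Most of the summed level of the list came from 1 of these, Srgn, which encodes the proteoglycan serglycin and stood at 10062 CPM in N1a and 11195 in N1b of tumour 1 and at 8865 and 11229 in tumour 2. The list as a whole summed to 10519.8 and 9180.1 in N1a and to 11389 and 11410.3 in N1b. Against N2, N3 and N5 together, Ctsc (cathepsin C) was higher in N1a with 23 and 3 UMIs, and Cd63, a granule membrane protein, was lower with 18 and 1. Among genes of dividing cells, 10 of 13 measured had 0 UMIs in N1a, Mki67 and Top2a included, and Hmgb2, which is also expressed outside the cell cycle, was the 1 member with enough UMIs to compare and was not called.

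Of 9 genes in the list for gelatinase granules, 5 were higher in N1a than in N2, N3 and N5 together (Mmp8, Mmp9, Mmp25, Retnlg and Adam19) and none was lower, beside 7.46% and 8.28% of all genes. Whether the product of each member lies in these granules was not tested. With TMM or DESeq2 scaling 5 were higher and 1 was lower. Against N1b, 1 of 8 was higher, the marker Mmp8, beside 1.49% of all genes. Since Mmp8 and Retnlg are markers of N1a, the counts that include them are no independent support. The members did not all follow 1 order of subsets: 3 of the 9 declined at each step from N1a to N5 in both tumours, and Fgl2, a fibrinogen-like protein, stood at 152 CPM in N1a and 370.4 in N1b of tumour 1 and at 209.8 and 302 in tumour 2. Mmp9, gelatinase B, stood at 4527 CPM in N1a, 2281 in N1b, 1818 in N2, 524 in N3 and 219.5 in N5 in tumour 1 and at 2990.1 in N1a, 2717 in N1b, 1152 in N2, 353 in N3 and 109 in N5 in tumour 2, and its N1a level was 1.99-fold and 1.10-fold that of N1b. The summed level of the list, most of which came from the markers Mmp8 and Retnlg, was 39759 in N1a, 21314 in N1b, 12985 in N2, 8884 in N3 and 2538 in N5 in tumour 1 and 43435 in N1a, 21372 in N1b, 9973 in N2, 3764 in N3 and 2004 in N5 in tumour 2. That of secondary granules, with Ngp and Lcn2 included, was 56211 in N1a, 28293 in N1b, 22120.4 in N2, 12797 in N3 and 6091 in N5 in tumour 1 and 46739.8 in N1a, 33506 in N1b, 17551 in N2, 7793 in N3 and 5185 in N5 in tumour 2. Both sums, which the marker genes weigh on, were at their highest in N1a and declined at each step to N5 in both tumours.

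**Figure D2:**
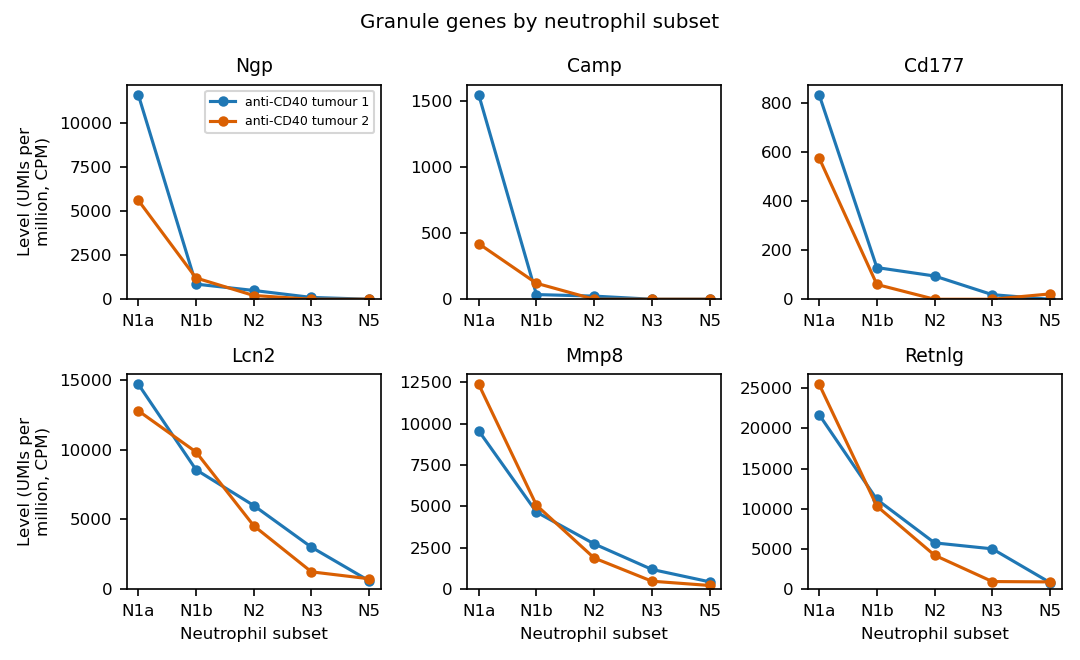
Levels of 6 granule genes (CPM, vertical axes start at 0) in the 5 neutrophil subsets, each point 1 subset in 1 treated tumour. All 6 are highest in N1a in both tumours, and in tumour 1 Camp stood at 1544 CPM in N1a and 35.3 in N1b.

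N1b was the subset nearest to N1a by the number of genes called. Over the 872 genes that could be compared with all 4 other subsets, 3.67% differed between N1a and N1b, 11.1% between N1a and N2, 32.5% between N1a and N3 and 47.9% between N1a and N5. Against N1b, 16 of 1074 genes (1.49%) were higher and 24 (2.23%) were lower in N1a. Higher calls were 40% of these, and 51.2% or 61.5% with TMM or DESeq2 scaling. In tumour 2 the counts rest on 16 N1a and 14 N1b cells, and fewer genes could be compared without a pool. Without pool 3 they were 10 and 16 of 745 genes, and without pool 4 they were 4 and 20 of 485. In single tumours, without the need to pass in the other, they were 100 and 142 of 1958 in tumour 1 and 160 and 227 of 1129 in tumour 2. Besides Ngp, Camp, Cd177 and Mmp8, the higher genes included Ifitm6, Lipg, Aldh2, Dstn and Ckap4. Ifitm6, an interferon-induced transmembrane family member of myeloid cells, stood at 8684 CPM in N1a and 3563 in N1b of tumour 1, and at 7134 and 2234 in tumour 2. Ifitm1, Ifitm2 and Ifitm3 of the same family were not called. Lipg, endothelial lipase, stood at 331 against 82.3 and at 682 against 121. Aldh2, a mitochondrial aldehyde dehydrogenase, stood at 597 against 212 and at 525 against 60.4. Dstn (destrin), which severs actin filaments, stood at 762 against 276 and at 892 against 121. In tumour 2 the N1b values of Lipg, Aldh2 and Dstn rest on 2, 1 and 2 UMIs.

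The 24 genes lower in N1a than in N1b included growth factor, signalling and stress genes. Csf1, the macrophage growth factor, had 1 and 2 UMIs in N1a, and N1b was 18.6-fold (95% counting interval 3.00 to 770.3) and 4.03-fold (95% counting interval 0.767 to 39.7) higher. Ppp1r15a, a phosphatase subunit of the stress response, stood at 46.4 CPM in N1a against 341 in N1b of tumour 1 and at 52.5 against 483 in tumour 2. Pmaip1, a pro-apoptotic BH3-only protein, stood at 13.3 against 153 and at 52.5 against 483. Bhlhe40, a transcription factor of activated immune cells, was 7.10-fold and 5.75-fold higher in N1b. Traf1, an adaptor of receptors of the tumour necrosis factor family such as CD40, stood at 126 against 717 and at 262 against 724. Tnfaip3 and Zc3h12a, which brake inflammatory signalling, and Ptgs2, the inducible cyclooxygenase, were lower as well: Ptgs2 stood at 484 in N1a against 1834 in N1b of tumour 1 and at 839 against 1932 in tumour 2. Ly6i and Mpeg1 (perforin-2) were lower with 139 against 547 and 219 against 658 in tumour 1. Irf1, an interferon response factor, was called lower too, and not so with DESeq2 scaling. The tumour 2 values of Csf1, Ppp1r15a, Pmaip1 and Bhlhe40 rest on 1 or 2 UMIs in N1a, and the counting interval of Csf1 in tumour 2 held 1. Aldh2, Bhlhe40, Ppp1r15a and Irf1 share exonic bases with a gene on the other strand. Of the genes named earlier or further on, so do Adam19, Alox5ap, Cd274, Cebpb, F13a1, Fn1, Gbp2, Il1b, Jun, Mpo, Ms4a4c, Ms4a6c, Prss57, Prtn3, Runx1, Slc2a1 and Tspo, and Ifitm2, Igtp and Top2a share some with a gene on the same strand. Whether counting used strand was not stated, so that the counts of all of these are uncertain. The overlaps of Hcar2 and Mff were not analysed here. Cd40 itself and Il12b, which encodes the p40 chain that the transgene reports, had 0 UMIs in N1a.

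**Figure D3:**
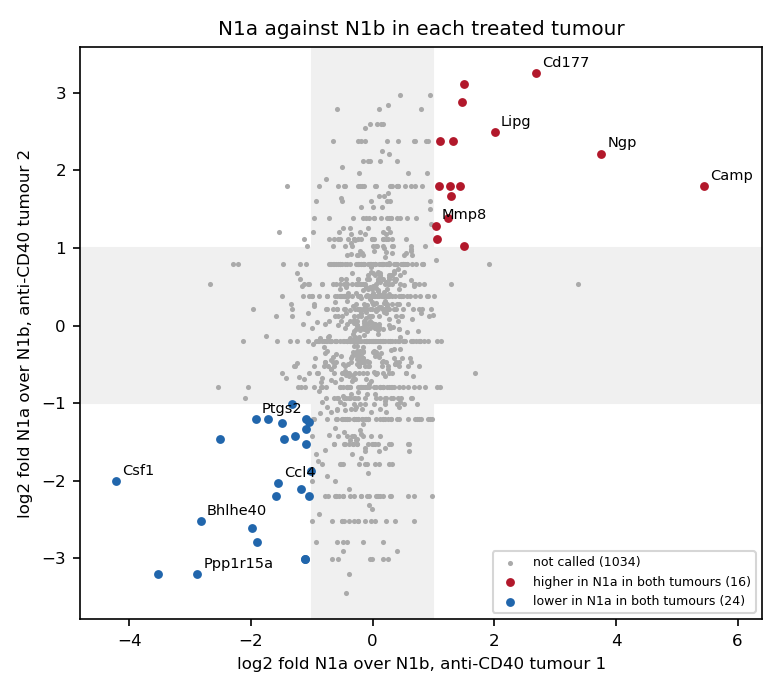
Log2 fold of N1a over N1b in tumour 1 (horizontal axis) and tumour 2 (vertical axis) for the 1074 genes compared, with a group at 0 UMIs set to 3 counts and the band under 2-fold in grey. The 16 genes called higher lie at the upper right, with Camp and Ngp farthest in tumour 1, and the 24 called lower at the lower left.

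More genes were called at each step from N2 to N5. Against N2, 55 of 1380 genes (3.99%) were higher in N1a and 106 (7.68%) lower. Higher calls made up 34.2% of these, and 29.0% or 47.4% with TMM or DESeq2 scaling. Against N3, 221 of 1356 genes (16.3%) were higher and 193 (14.2%) lower, and against N5, 303 of 1248 (24.3%) were higher and 277 (22.2%) lower. Against N2, N3 and N5 together, 174 of 2332 genes (7.46%) were higher and 193 (8.28%) lower. Of these, 47.4% were higher calls, and 23.1% or 29.4% with TMM or DESeq2 scaling, which moved the median log2 difference of all genes in tumour 2 from 0.33 to -0.34 or -0.46. Leaving out pool 3 or 4 brought the 55 genes higher than in N2 to 24 or 28 and the 221 higher than in N3 to 126 or 133, and leaving out pool 3 brought the 106 lower than in N2 to 67. Against N5 the 303 and 277 became 188 and 172 without pool 2 and 192 and 152 without pool 3. The counts against N3 without pool 2 were 143 and 117. Against the 3 later subsets together, the 193 lower genes became 107 without pool 3, and the 174 higher genes became 89 without pool 4. Fewer genes could be compared without a pool. Without pool 3 or 4 these were 868 or 811 against N2, 1032 or 867 against N3 and 1900 or 1506 against the later subsets together. Without pool 2 they were 712 against N3 and 665 against N5, and without pool 3 they were 963 against N5. Against each of the 4 subsets taken alone, 10 of 872 genes (1.15%) were higher and 11 (1.26%) lower. The higher ones were Ngp, Camp, Cd177, Mmp8, Ifitm6, Lipg, Aldh2, Dstn, Ckap4 and Mff, and the lower ones Bhlhe40, Ccl4, Csf1, Cxcl3, Hcar2, Il1rn, Irf1, Ppp1r15a, Ptgs2, Tnfaip3 and Zc3h12a.

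Of 13 chemokine and cytokine genes compared with N2, N3 and N5 together, 8 were lower in N1a and none was higher, beside 8.28% and 7.46% of all genes, with a median log2 difference of -2.29 in tumour 1 and -2.19 in tumour 2. Ccl3, a chemokine that attracts myeloid cells, stood at 172 CPM in N1a, 188 in N1b, 1039 in N2, 8809 in N3 and 16160.2 in N5 in tumour 1 and at 262 in N1a, 785 in N1b, 2940.4 in N2, 13784 in N3 and 17474 in N5 in tumour 2. Its level in N2, N3 and N5 together was 34.8-fold (95% counting interval 23.6 to 53.3) that of N1a in tumour 1 and 47.2-fold (95% counting interval 20.2 to 146) in tumour 2, where the 5 UMIs of N1a came from 1 cell. Ccl4, its close relative, was 26.6-fold and 22.9-fold higher in those subsets and was lower in N1a than in N1b too. Cxcl2, which recruits neutrophils through Cxcr2, was abundant in all subsets, with 10102 in N1a, 18192 in N1b, 20944 in N2, 39684 in N3 and 45243 in N5 in tumour 1 and 11541 in N1a, 19138 in N1b, 29646 in N2, 52502 in N3 and 48760.3 in N5 in tumour 2. Cxcl3 stood at 365 in N1a, 1017 in N1b, 2183 in N2, 15287 in N3 and 6804 in N5 in tumour 1 and at 629.5 in N1a, 1509 in N1b, 1455 in N2, 8942 in N3 and 2353 in N5 in tumour 2, and N1a was the lowest subset in both. Vegfa, the endothelial growth factor, had 8 and 1 UMIs in N1a and was 10.2-fold and 13.9-fold higher in the later subsets. Il1b, which encodes interleukin 1 beta, was lower in N1a than in N2 and in N3 but was not called against the 3 later subsets together, with 9552 in N1a, 18797 in N1b, 20355 in N2, 19594 in N3 and 7627 in N5 in tumour 1 and 12432 in N1a, 14731 in N1b, 24978 in N2, 29335 in N3 and 10306 in N5 in tumour 2. Its antagonist Il1rn was lower in N1a than in each other subset, with 756 in N1a, 1564 in N1b, 2762 in N2, 3389 in N3 and 6256 in N5 in tumour 1 and 944 in N1a, 2234 in N1b, 2274 in N2, 2580.1 in N3 and 4466 in N5 in tumour 2. Osm, which encodes oncostatin M, was higher in N1a than in N5 and was not called against the 3 later subsets together. It went from 7232 in N1a to 1852 in N5 of tumour 1 and from 5718 to 2527 in tumour 2.

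Among targets of NF-kB, the factor that CD40 and Toll-like receptors activate, 4 of 18 were lower in N1a than in N2, N3 and N5 together and none was higher, beside the 8.28% and 7.46% of all genes. These were Nfkbia, Tnfaip3, Ier3 and Ptgs2. Nfkbia, the inhibitor that NF-kB itself induces, stood at 1664 CPM in N1a, 4463 in N1b, 5358 in N2, 8631 in N3 and 10838 in N5 in tumour 1 and at 2308 in N1a, 3683 in N1b, 7245 in N2, 12670.5 in N3 and 11089.8 in N5 in tumour 2. Ier3, an early response gene, was 6.60-fold and 10.2-fold higher in the later subsets. The median log2 difference of the 18 was -0.89 in tumour 1 and -0.10 in tumour 2, against -0.17 and 0.33 over all genes. Against N5 alone, 4 of 14 were lower and 3 higher, near the 22.2% and 24.3% of all genes. Against N1b, 3 of 15 were lower (Tnfaip3, Ptgs2 and Birc3), beside 2.23% of all genes. Of the transcription factors listed, 7 of 20 (8.28% of all genes) were lower than in N2, N3 and N5 together, and none (7.46%) was higher. They were Atf3, Bhlhe40, Maff, Runx1, Id2, Jun and Klf6. Atf3, a factor of the stress response, had 1 and 2 UMIs in N1a and stood at 1043 and 1503 CPM in N5. Cebpb, the C/EBP factor of emergency granulopoiesis, was at similar levels, with 5946 in N1a, 7067 in N1b, 7332 in N2, 8341 in N3 and 7723 in N5 in tumour 1 and 8341 in N1a, 8029.5 in N1b, 8397 in N2, 7528 in N3 and 6689 in N5 in tumour 2. Cebpe, the C/EBP factor needed to make secondary granules, had 4 and 2 UMIs in N1a, too few to compare.

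Genes of glycolysis and of the response to low oxygen were at their highest in N5 and low in N1a, N1b and N2. The summed level of the 19 genes was 4759 CPM in N1a, 4751 in N1b, 5069 in N2, 13556 in N3 and 20536 in N5 in tumour 1 and 4249 in N1a, 6882 in N1b, 5244 in N2, 11045 in N3 and 18803 in N5 in tumour 2. Of 18 compared with N2, N3 and N5 together, 8 were lower in N1a, and 1, the glucose transporter Slc2a3, was higher, where 8.28% and 7.46% of all genes were. Ero1l, an oxidase of the endoplasmic reticulum that low oxygen induces, stood at 46.4 CPM in N1a, 76.4 in N1b, 166 in N2, 889 in N3 and 1824 in N5 in tumour 1 and at 52.5 in N1a, 121 in N1b, 121 in N2, 724 in N3 and 1874 in N5 in tumour 2. Hk2, hexokinase 2, stood at 53.0 in N1a and 1591 in N5 of tumour 1 and at 52.5 and 1874 in tumour 2. Slc2a3 stood at 629.7 in N1a, 406 in N1b, 157 in N2, 337 in N3 and 96.0 in N5 in tumour 1 and at 734 in N1a, 362 in N1b, 90.9 in N2, 283 in N3 and 152 in N5 in tumour 2. The other glucose transporter in the list, Slc2a1, was highest in N5, with 179 in N1a, 282 in N1b, 379.7 in N2, 964 in N3 and 1386 in N5 in tumour 1 and 315 in N1a, 60.4 in N1b, 455 in N2, 707 in N3 and 1155 in N5 in tumour 2. Hilpda, a lipid droplet protein induced by low oxygen, was among the genes farthest below the later subsets, with 312 in N1a, 594 in N1b, 1163 in N2, 5036 in N3 and 13101 in N5 in tumour 1 and 419.7 in N1a, 1328 in N1b, 1122 in N2, 7033 in N3 and 16319 in N5 in tumour 2. Genes reported in neutrophils of tumours that carry Siglec-F were also low: 7 of 13 were lower in N1a than in N2, N3 and N5 together and none was higher, against 8.28% and 7.46% of all genes. Cstb (cystatin B) stood at 106 in N1a, 118 in N1b, 195 in N2, 749 in N3 and 3087 in N5 in tumour 1 and 52.5 in N1a, 181 in N1b, 303 in N2, 530.1 in N3 and 2702 in N5 in tumour 2, while Siglecf itself had 0 UMIs in N1a. Cd274, which encodes the checkpoint ligand PD-L1, stood at 119 in N1a, 218 in N1b, 659.7 in N2, 1816 in N3 and 3100.3 in N5 in tumour 1 and at 52.5 in N1a, 0 in N1b, 1455 in N2, 1749.5 in N3 and 3529.6 in N5 in tumour 2. Against N1b, none of the 10 glycolysis and low-oxygen genes and none of the 8 Siglec-F genes compared was called in either direction.

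Type I interferon genes were at their highest in N2 in both tumours, and the place of N1a depended on the scaling. The summed level of 32 genes was 14265 CPM in N1a, 14546 in N1b, 33098 in N2, 21457 in N3 and 23198 in N5 in tumour 1 and 21350.3 in N1a, 10324 in N1b, 35284 in N2, 19916 in N3 and 16341 in N5 in tumour 2. Scaled by total UMIs, N1a was thus the lowest subset in tumour 1 and the second highest in tumour 2. These places did not hold with the TMM or DESeq2 totals. With either, N1a stood above N1b in tumour 1 and below N3 and N5 in tumour 2. Of 31 compared with N2, N3 and N5 together, 1 (Rsad2, which encodes viperin) was called lower in N1a, and this share was below the 8.28% of all genes. The count was 9 with TMM scaling, where 14.2% of all genes were lower, and 10 with DESeq2 scaling, where 303 of 2332 were. It was 7 without cells that held at least 3 UMIs of another cell type's markers, where 128 of 2102 genes were lower. Rsad2 stood at 696 in N1a, 582 in N1b, 4575 in N2, 3595 in N3 and 7271 in N5 in tumour 1 and at 1731 in N1a, 242 in N1b, 5032 in N2, 3004 in N3 and 4314 in N5 in tumour 2. Isg15, a ubiquitin-like protein, stood at 1551 in N1a, 1887 in N1b, 4826 in N2, 3220.4 in N3 and 2895 in N5 in tumour 1 and 2466 in N1a, 1147 in N1b, 6244 in N2, 4913 in N3 and 3203 in N5 in tumour 2. The median log2 difference of 23 genes between N1a and N1b was -0.06 in tumour 1 and 1.06 in tumour 2, and 1 gene, Cmpk2, was called higher. Of 18 genes of the interferon gamma response, 6 were lower than in N2, N3 and N5 together, beside 8.28% of all genes (Gbp2, Irf1, Igtp, Irgm1, Socs3 and Cd274). Irgm1, a GTPase of host defence, had 19 and 2 UMIs in N1a and stood at 126 in N1a, 188 in N1b, 588 in N2, 515 in N3 and 658 in N5 in tumour 1 and at 105 in N1a, 60.4 in N1b, 849 in N2, 1131 in N3 and 588 in N5 in tumour 2.

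**Figure D4:**
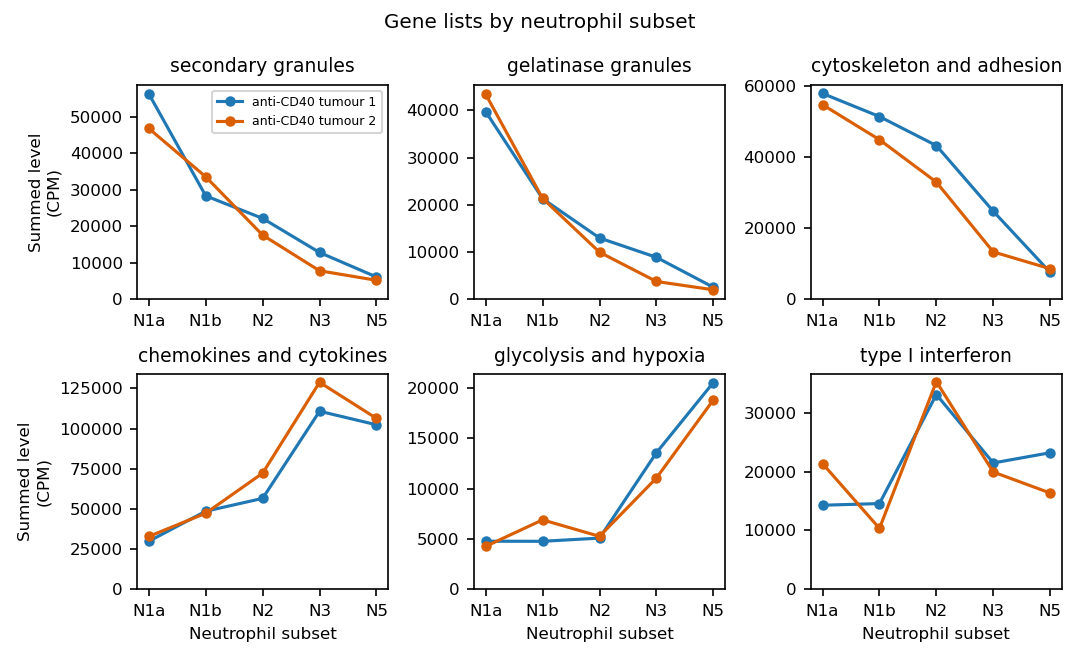
Summed levels of 6 gene lists (CPM, vertical axes start at 0) in the 5 neutrophil subsets, each point 1 subset in 1 treated tumour. N1a is the highest subset for secondary and gelatinase granules and for cytoskeleton and adhesion genes, the lowest for chemokines and cytokines, and type I interferon genes peak in N2 in both tumours.

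Genes that mark neutrophils as such were present in N1a. Of 15 listed, none was called against N1b, and 2 were higher than in N2, N3 and N5 together, a share near the 7.46% of all genes. These were S100a8, a subunit of calprotectin, at 54329 CPM in N1a, 38071 in N1b, 26586 in N2, 20595 in N3 and 7298 in N5 in tumour 1 and 50307 in N1a, 35136 in N1b, 22341 in N2, 10939 in N3 and 8366 in N5 in tumour 2, and Ly6g, the surface marker of mouse neutrophils, at 504 in N1a, 353 in N1b, 166 in N2, 74.9 in N3 and 13.7 in N5 in tumour 1 and 682 in N1a, 362 in N1b, 212 in N2, 0 in N3 and 21.8 in N5 in tumour 2. Cxcr2, the receptor of Cxcl2, stood at 2274 in N1a, 2728 in N1b, 2226 in N2, 2116 in N3 and 412 in N5 in tumour 1 and 1888 in N1a, 1872 in N1b, 1849 in N2, 1749.5 in N3 and 523 in N5 in tumour 2 and was lowest in N5. Of 15 genes of circulating neutrophils, 7 were higher in N1a than in N2, N3 and N5 together (Padi4, Ceacam1, Lrg1, Ifitm6, Prr13, Alox5ap and Tspo) and none was lower, beside 7.46% and 8.28% of all genes. With TMM or DESeq2 scaling 4 or 5 were higher, beside 4.2% or 5.4% of all genes. Padi4 passed the filter in tumour 2 only through N1a. Padi4, the enzyme that citrullinates histones in extracellular traps, stood at 212 in N1a, 129 in N1b, 57.0 in N2, 9.36 in N3 and 13.7 in N5 in tumour 1 and at 315 in N1a, 121 in N1b, 0 in N2, 17.7 in N3 and 0 in N5 in tumour 2. Lrg1, a glycoprotein that neutrophils also store in granules, stood at 2446 in N1a, 2128 in N1b, 1448 in N2, 365 in N3 and 124 in N5 in tumour 1 and 2675 in N1a, 1449 in N1b, 1334 in N2, 371 in N3 and 152 in N5 in tumour 2. Cxcr4, the receptor that retains neutrophils in the marrow and that aged cells regain, was lower in N1a than in the later subsets together, with 159 in N1a, 259 in N1b, 593 in N2, 627 in N3 and 850.5 in N5 in tumour 1 and 367 in N1a, 423 in N1b, 788 in N2, 1007 in N3 and 523 in N5 in tumour 2.

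The authors' names run from N1a to N5, and the levels were also read in that order. In both treated tumours, 28 of 2660 genes (1.05%) declined at each step from N1a over N1b, N2 and N3 to N5, and 44 (1.65%) increased at each step. Lcn2, Mmp8, Retnlg, Mmp9, Pglyrp1, Ifitm6, S100a8 and S100a9 were among the former, and Ccl3, Ccl4, Il1rn, Bhlhe40, Ero1l, Hmox1 and Cstb among the latter. Hmox1, heme oxygenase 1, stood at 166 CPM in N1a, 288 in N1b, 489 in N2, 1039 in N3 and 2277 in N5 in tumour 1 and at 209.8 in N1a, 302 in N1b, 364 in N2, 759.9 in N3 and 2462 in N5 in tumour 2. N1a was the highest of the 5 subsets in both tumours for 227 genes (8.53%) and the lowest for 261 (9.81%). Since the subsets were named from these transcriptomes, the order is a description and no support for a sequence of states.

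N1a cells of tumour 1 had higher levels of Ltf, Camp and Ngp, and those of tumour 2 higher levels of some interferon genes. Of 1123 genes with at least 20 UMIs over both tumours, 168 (15.0%) were at least 2-fold higher in N1a of tumour 1 and 68 (6.06%) at least 2-fold lower, and for 21 (1.87%) and 29 (2.58%) the counting interval also did not hold equal levels. With TMM scaling, which moved the median log2 difference of all genes from 0.07 to 0.49, the counts were 267 and 16. Without pool 1, 2, 3 or 4 the higher count was 110, 55, 82 or 120 and the lower count 40, 21, 108 or 92. The genes compared were then 846, 516, 1072 or 1083. Ltf stood at 1213 CPM in tumour 1 and 52.5 in tumour 2 (183 UMIs against 1), a ratio of 23.1 with a counting interval of 4.10 to 918. Camp stood at 1544 and 420 and Ngp at 11600.2 and 5613, with ratios of 3.68 (1.84 to 8.63) and 2.07 (1.70 to 2.54). Of 19 secondary granule genes, 4 were at least 2-fold higher in tumour 1 (Ltf, Camp, Ngp and Itgb2l) and none was lower. These shares were near the 15.0% and 6.06% of all genes. With TMM scaling 5 of the 19 were higher, where 267 of 1123 genes were, so that the list as a whole did not stand out. Wfdc17, a secreted whey acidic protein, stood at 1969 and 472, a ratio of 4.17 (2.17 to 9.21). In the other direction, 7 of 24 type I interferon genes and 3 of 9 class I antigen presentation genes were at least 2-fold higher in N1a of tumour 2, beside 6.06% of all genes. None of either was higher in tumour 1, beside 15.0% of all genes. With TMM scaling 2 and 1 were higher in tumour 2, where 16 of 1123 genes were. Rsad2 stood at 696 in tumour 1 and 1731 in tumour 2, a ratio of 0.402 (0.270 to 0.614), which was 0.539 with TMM scaling and so short of the 2-fold line. Ccrl2, an atypical chemokine receptor, stood at 312 and 1102, and H2-Q7, a class Ib gene with close relatives, at 305 and 997. With 1 animal each, and with tumour 2 represented by 16 cells from pools of its own, these are differences between 2 groups of cells and have no replicate check.

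N1a cells also differed among themselves. Thinned to 300 UMIs, N1a cells of tumour 1 held a median of 4.00 UMIs of Lcn2 (0 to 15), 5.00 of Retnlg (0 to 19), 3.00 of Mmp8 (0 to 8) and 2.00 of Ngp (0 to 15). In tumour 2 the medians were 4.00, 7.00, 3.00 and 1.00. A UMI of Ngp was kept by 69.9% of N1a cells in tumour 1 (61.0 to 77.9) and 60.0% in tumour 2 (32.3 to 83.7), against 13.9% and 30.8% of N1b cells and 1 of 47 and 0 of 127 T cells. In the untreated tumour at full depth, Ngp and Camp were seen in 0 of 49 neutrophils and Ltf in 2. A count of 0 allows up to 6.12% of cells with a UMI, which limits detection and not expression, since these cells had a median of 435 UMIs against 964.5 in N1a of tumour 1. Camp and Ltf were held by fewer cells. Unthinned, Ngp was seen in 83.6% and 81.3% of N1a cells and Camp in 35.2% and 25.0%. In tumour 1, Camp was kept by 17.1% of thinned N1a cells and Ltf by 11.4%, and at full depth the 10 of 128 cells richest in each gene, taken gene by gene, held 67.8% of 233 Camp UMIs, 84.2% of 183 Ltf UMIs and 19.3% of 2219 Lcn2 UMIs. The fewer UMIs a gene has, the more its richest cells hold by counting alone, and how much of the difference this makes was not tested. The 25 thinned cells of tumour 1 with a UMI of Camp or Ltf held on average 5.80 UMIs of Ngp, against 2.27 in the other 98, and 2.28 UMIs of Cxcl2, against 3.65. These cells were deeper before thinning, with a median of 1571 against 928 UMIs, and the part of depth in this difference beyond thinning was not tested. In tumour 2, 2 of 15 thinned cells held Camp and none held Ltf.

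**Figure D5:**
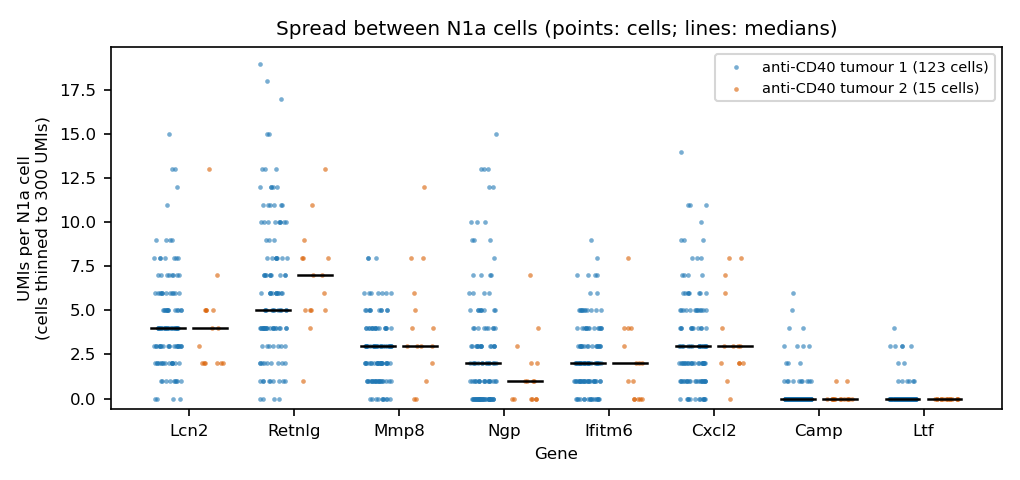
UMIs of 8 genes in single N1a cells thinned to 300 UMIs (vertical axis), 123 cells of tumour 1 and 15 of tumour 2, with medians as black lines. Lcn2, Retnlg and Mmp8 are spread over nearly all cells, whereas Camp and Ltf have a median of 0 and reach 6 and 4 UMIs in single cells of tumour 1.

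Markers of other cell types were near 0 in N1a with 1 exception. The lists of T cells (8 genes), NK cells (5), B cells (4), dendritic cells (6), basophils and mast cells (4), red cells (4), platelets (3) and tumour epithelium (3) had 0 UMIs in all 144 cells, macrophage markers (7) had 7 and 2 UMIs, and those of eosinophils (5) and of fibroblasts and endothelium (4) had 1 and 2 in tumour 1 and 0 in tumour 2. Of 6 monocyte markers, Ccr2, Fn1, F13a1, Ms4a4c and Ms4a6c had 0 UMIs, and Ly6c2, a surface protein of monocytes and of young neutrophils with close relatives in the Ly6 family, had 256 and 45. Ly6c2 stood at 1697 CPM in N1a, 917 in N1b, 645 in N2, 187 in N3 and 82.3 in N5 in tumour 1 and at 2361 in N1a, 604 in N1b, 424 in N2, 124 in N3 and 65.4 in N5 in tumour 2, so that it declined over the subsets as the granule genes did. In the other myeloid cells of tumour 1, Ly6c2 stood at 1063 CPM beside 1393 of Ms4a6c and 586 of Fn1, and in those of tumour 2 at 217 beside 1425 and 411. At least 3 UMIs of another type's markers were found in 45 of the 144 N1a cells, each through Ly6c2. Without such cells, 12.2% of treated neutrophils were N1a in place of 15.7%. The counts of genes higher and lower than in N1b were then 7 and 18 of 790 compared, in place of 16 and 24 of 1074. Against N2, N3 and N5 together, 7 of 16 secondary granule genes were then higher in N1a in place of 12 of 19, and 4 of 13 Siglec-F genes and 5 of 18 glycolysis and low-oxygen genes were lower in place of 7 and 8. Of all genes compared, 137 of 2102 were then higher and 128 lower, in place of 174 and 193 of 2332. The part of Ly6c2-bearing cells of another type in these results was not tested; the other 5 monocyte markers stood at 0.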

How the data were processed

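CD45+ cells of 3 mouse MC38 tumours were read by inDrops in 12 libraries and 4 sequencing pools. The values are UMI counts per gene and cell, deposited by the authors as 1 matrix per pool, with a table that names the tumour, library and neutrophil subset of each cell. The tools bcl2fastq and STAR and the build GRCm38 were used, per the submitters' processing notes. Their versions, and how strand and doublets were handled, were not given in the sources used here; no doublet caller was run, since the cells are those the authors kept. Cells were grouped by the deposited names, counts were summed per subset and tumour and scaled to counts per 1000000 UMIs (CPM), and a group at 0 UMIs was set to 3 counts for a fold, given as "at least". Intervals of ratios are exact conditional binomial ones, and those of shares exact Clopper-Pearson ones, at 95%. No p-value was computed, since the subsets were named from these transcriptomes and the treated tumours number 2. The procedure was tested on simulated counts.

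The subset, its markers and the gene lists were chosen with earlier results of these data known, and the list of Siglec-F neutrophils and the 4 markers are not independent evidence of their direction. Genes named are the 4 markers, up to 4 per list by the size of the mean log2 fold against N2, N3 and N5, the 12 highest and 12 lowest by the smaller of both tumours' folds against N1b and against N2, N3 and N5, and 6 in each direction between the tumours. Other genes (among them Pglyrp1, Osm, Il1b, Cebpe, Cd40, Il12b, Cxcr2 and Ly6c2) and all members of counts of 11 or fewer were chosen after their values were seen. Hspa1a and Hspa1b, the Ifit, Ly6 and H2-Q genes, and Ccl3 and Ccl4 have close relatives, and the split of their reads was not stated. Alternatives were TMM (edgeR 4.0.16) and DESeq2 1.42.0 (R 4.3.3) scaling factors, no or a stricter filter (50 and 10 UMIs), a fold of 3, thinning to 300 UMIs per cell, means over cells, and leaving out a tumour, a pool, the shallowest cells or cells with at least 3 UMIs of another type's markers. Python 3.11.15 with numpy 2.4.6, pandas 2.3.3, scipy 1.17.1 and matplotlib 3.10.9 was used.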

Additional observations from a re-analysis of the deposited data

Results flagged for a closer look

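For the N1a share and the levels of 9 genes in N1a, the 4 libraries of each treated tumour were checked for a library far from the others, which gave 20 groups. In 2 of these a library stood apart, both in tumour 2 and in the library with 6 N1a cells. It held Ltf at 118.4 CPM (1 UMI) and Ccl3 at 592.1 (5 UMIs, all in 1 cell), while the other 3 libraries held none of either. Chance alone flags about 1 in 20 groups by the limit used, but where 3 of 4 libraries are at 0, a library with any UMI always stands apart, so that this rate does not hold here. The libraries of 1 tumour are no replicates.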

How the results depend on the processing

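Counts of called genes moved with the filter, the fold and the depth. The number of genes compared moved with the filter, the depth and the cells left out as well. Folds of named genes against N1b or against N2, N3 and N5 together were read as means over both tumours. The 111 that were called kept their direction wherever a fold could be recomputed. Part of this was fixed in advance, since another filter or a fold of 3 does not change a fold. A called gene also has the same direction in each tumour alone. Of the 113 that were not called, 48 changed sign under at least 1 setting. Between the tumours, Mmp8 and Retnlg, lower in N1a of tumour 1, turned with TMM scaling, to ratios of 1.04 and 1.14. Without a filter on UMIs, 58 of 3883 genes were lower than in N1b and 91 of 4325 higher than in N2. Those higher than in N3 were 412 of 4626, and those higher than in N5 were 507 of 4435. With the stricter filter, the genes higher and lower were 9 and 12 of 558 against N1b and 26 and 68 of 741 against N2. Against N3 they were 119 and 119 of 668, and against N5 they were 171 and 157 of 596. With a fold of at least 3 they were 4 and 7, 22 and 33, 113 and 97, and for N5 168 were lower. Thinned to 300 UMIs they were 4 and 6 of 290, 18 and 41 of 508, 70 and 58 of 471, and 100 and 86 of 422. Between the tumours they were 48 and 26 of 322. Unthinned, 1074, 1380, 1356 and 1248 genes were compared with the 4 subsets, and 1123 between the tumours. Against N2, N3 and N5 together, the genes higher were 99 with TMM scaling and 63 with a fold of at least 3, of 2332 compared. They were 366 of 5978 without a filter, 85 of 1295 with the stricter one and 72 of 1009 when thinned. The genes lower were 330 with TMM scaling, 303 with DESeq2 size factors and 99 with a fold of at least 3. They were 66 of 1009 when thinned and 128 of 2102 without cells that held markers of a second type. Without cells that held markers of a second type, 7 of 790 genes were higher than in N1b. Those higher than in N2 were 29 of 1133, and those higher than in N5 were 197 of 944. Those lower than in N3 were 127 of 1088, and 45 of 681 were lower in N1a of tumour 1 than of tumour 2. With DESeq2 size factors 15 were lower than in N1b, and with TMM scaling 267 were higher and 16 lower in N1a of tumour 1 than of tumour 2. Leaving out a tumour or a pool in turn gave 4 to 160 genes higher and 16 to 227 lower than in N1b, 24 to 268 and 67 to 316 for N2, 126 to 452 and 117 to 362 for N3, 180 to 558 and 152 to 442 for N5, and 89 to 657 and 107 to 597 for N2, N3 and N5 together; the upper ends are those without a tumour, where a gene need pass in the other only. Between the tumours, leaving out a pool gave 55 to 120 higher and 21 to 108 lower, of 516 to 1083 genes compared. Against N1b, 485 to 964 genes could be compared without a pool. The N1a share of treated neutrophils was 15.7%, it was 4.74% of all CD45+ cells, and leaving out a tumour or pool gave 7.44% to 18.3%. Apart from these constructions the cause was not tested. Tumour 2 was shallow, with 16 N1a cells (19063 UMIs) and 14 N1b cells (16564 UMIs). The subsets were compared within each tumour, so that each fold was paired by tumour. No test was made and no replicate block was fitted.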

Other observations

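Other gene groups were read in N1a against N2, N3 and N5 together. Of 16 cytoskeleton and adhesion genes, 5 were higher in N1a and none lower (Actb, Tmsb10, Cfl1, Itgb2 and Arhgdib), beside 7.46% and 8.28% of all genes. With TMM scaling 1 was higher, which is near the 4.2% of all genes, and with DESeq2 scaling 3 were, beside 5.4%. Arhgdib stood at 1021 CPM in N1a, 612 in N1b, 318 in N2, 122 in N3 and 54.9 in N5 in tumour 1 and at 577 in N1a, 604 in N1b, 212 in N2, 35.3 in N3 and 43.6 in N5 in tumour 2. Of the 6 subunits of the NADPH oxidase, which makes superoxide, Ncf1 was called higher, where 7.46% of all genes were, and not so with DESeq2 scaling. The summed level of the 6 was 5621 in N1a, 5362 in N1b, 4713 in N2, 1938 in N3 and 768 in N5 in tumour 1 and 5351 in N1a, 4105 in N1b, 4244 in N2, 954 in N3 and 784 in N5 in tumour 2, with N3 and N5 the lowest in both. Of 13 antioxidant and stress genes, 2 were higher in N1a (Gpx1 and Mgst1) and 6 lower (Hmox1, Slc7a11, Hspa5, Ddit3, Ddit4 and Prdx6), beside 7.46% and 8.28% of all genes. Arhgdib, Cfl1, Ncf1 and Ddit3 share exonic bases with a gene on the other strand, so that their counts are uncertain. Mgst1, a microsomal glutathione transferase, stood at 795 in N1a, 429 in N1b, 408 in N2, 178 in N3 and 13.7 in N5 in tumour 1 and at 944 in N1a, 724 in N1b, 152 in N2, 53.0 in N3 and 0 in N5 in tumour 2.

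Heat shock genes, which tissue digestion can induce, were at their highest in N5. Hspa1b stood at 6.63 CPM in N1a, 0 in N1b, 94.9 in N2, 18.7 in N3 and 699.6 in N5 in tumour 1 and at 0 in N1a, 0 in N1b, 30.3 in N2, 548 in N3 and 3529.6 in N5 in tumour 2, and 3 of 6 listed genes were lower than in N2, N3 and N5 together, beside 8.28% of all genes. None of 11 class I antigen presentation genes, none of 9 mitochondrial transcripts and none of 5 survival genes was called. With TMM or DESeq2 scaling, 2 or 1 of the survival genes were called lower. Mitochondrial transcripts were 0.375% of the UMIs of N1a in tumour 1 and 0.446% in tumour 2, against 0.170% to 0.643% in the other subsets.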
